A study of Homo sapiens with 6 samples.

Results

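The stretch of chromosome 20 known as 20q13 is a classic amplicon of breast cancer, a region of which luminal tumors often carry extra copies. Its gene BCAS1 was named for that property. ZNF217 and BCAS1 lie near the beginning of the stretch, and GNAS lies near its end. The genes of this window were followed in BT474, a line of human breast cancer cells with estrogen receptor and HER2, known for gains of chromosomes 17 and 20. Members were all array probes whose hg19 position begins within a fixed 6 Mb window of the long arm, apart from the probes of BMP7, AURKA and TFAP2C and those named as long noncoding or antisense transcripts. Of 122 probes in the window, 5 belonged to the 3 genes left out and 37 to the noncoding names. The remaining 80 probes carried 61 gene names, of 58201 probes and 43317 names on the array, and 32 of the 61 names were gene symbols.

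Total RNA came from 3 groups with 2 arrays each, called A and B. Control BT474 cells (named MOCK by the submitters) carried an empty pcDNA3.1 plasmid, BT474-Var1 cells a pcDNA3.1 plasmid with the long variant 1 of the lncRNA NR2F1-AS1, and BT474-Var4 cells one with its short variant 4. The study's methods give the variant 4 plasmid a P2A-eGFP part that the variant 1 plasmid lacks, and name an empty version of each, of which it is not stated which one the Control arrays had. All 3 populations grew in RPMI-1640 with serum. They were stable transfectants after antibiotic selection, so each may descend from few cells, and nothing in the sources says that arrays A and B came from separate cultures. The p-values therefore measure only the spread between these arrays, which may be technical. DNA copy number was not measured, and a change in the amount of RNA per cell and a change in the share of cells with that RNA cannot be told apart in bulk RNA.

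Genes within an amplicon are co-amplified by position and not by function, so the window mixes a transcriptional corepressor partner, a chaperone subunit, RNA processing factors, membrane traffic proteins and a G protein. Copy number sets how many templates a cell has, while promoters and RNA turnover still act on each gene. The comparisons below give the RNA of each member in order along the chromosome.

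The probe sequences frame the values, since a microarray reads only the bases of its probe. GNAS is an imprinted locus with several promoters, which make XL alpha s, NESP55 and the stimulatory G protein subunit Gs alpha from different first exons joined to shared later exons. Its probes read different parts of the locus and are given one by one. They are shown 5′ to 3′ as the scanner files give them, all on the plus strand of hg19.
GNAS chr20:57430307-57430366: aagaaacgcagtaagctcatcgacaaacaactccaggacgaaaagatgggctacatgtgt
GNAS chr20:57475008-57475067: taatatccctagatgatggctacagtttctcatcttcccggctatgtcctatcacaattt
GNAS chr20:57485083-57485394: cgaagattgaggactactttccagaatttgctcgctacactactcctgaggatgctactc
GNAS chr20:57486004-57486063: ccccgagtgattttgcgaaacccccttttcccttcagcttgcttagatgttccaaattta
The file assigns the first of them to 4 transcripts, among them NM_001077490 and NM_080425, the XL alpha s transcripts, and the second to Ensembl transcripts alone. It assigns the last pair to NM_001077489, NM_001077490, NM_080425 and NM_016592 alike, which include the XL alpha s and NESP55 transcripts. The third probe has 60 bases and covers 312 bases of genome, so it crosses an intron.

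FAM209A and FAM209B are neighboring copies of one another, and their probes and promoters are shown because the genes rose together. The probes share a run of at most 5 bases, in capitals.
FAM209A chr20:55101088-55101147: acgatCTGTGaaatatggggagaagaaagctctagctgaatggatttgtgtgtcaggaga
FAM209B chr20:55111285-55111344: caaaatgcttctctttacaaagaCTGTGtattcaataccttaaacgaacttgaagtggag
The promoters, as the 300 bases around the RefSeq start (GRCh38.p14, plus strand), were identical at 244 of 269 positions (90.7%) at the best shift without gaps. Capitals mark TGACCT, the reverse complement of AGGTCA.
FAM209A chr20:56524494-56524793: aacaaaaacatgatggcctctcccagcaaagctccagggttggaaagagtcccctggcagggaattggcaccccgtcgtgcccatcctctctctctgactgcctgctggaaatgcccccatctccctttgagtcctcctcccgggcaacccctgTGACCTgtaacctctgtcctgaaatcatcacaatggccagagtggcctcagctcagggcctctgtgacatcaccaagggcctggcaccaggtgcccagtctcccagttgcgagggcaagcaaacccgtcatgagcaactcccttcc
FAM209B chr20:56532996-56533295: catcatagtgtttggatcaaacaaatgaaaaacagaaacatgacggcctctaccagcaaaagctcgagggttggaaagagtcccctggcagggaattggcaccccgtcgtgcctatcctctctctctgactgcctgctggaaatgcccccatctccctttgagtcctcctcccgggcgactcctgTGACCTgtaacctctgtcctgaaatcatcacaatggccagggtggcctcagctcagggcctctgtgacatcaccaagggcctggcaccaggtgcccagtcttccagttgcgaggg
A further FAM209B probe lies within that promoter, from 228 to 169 bases before the RefSeq start, and its values are given apart for that reason.
FAM209B chr20:55108074-55108133: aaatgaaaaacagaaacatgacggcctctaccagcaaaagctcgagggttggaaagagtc

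Before the members, the transfected gene was checked. Against Control, NR2F1-AS1 was raised by 6.03 and 3.75 log2 units in BT474-Var1 cells on the pair of probes at one end of the locus. On the pair at the other end it was raised by 6.92 and 7.98 in BT474-Var4 cells, and 1 of that pair was also raised by 3.36 in BT474-Var1 cells. These probes were above background on only 2, 3, 3 and 5 of the 6 arrays, with Control values between -6.62 and -3.61. They were tested through the groups in which they were bright, so the sizes are rough. In direction the probes went with the labels. All 11 luminal and HER2 markers were above background on every array, with summed levels of 2170 to 2210 in Control, 2720 to 2760 in BT474-Var1 and 2110 to 2130 in BT474-Var4 cells, in multiples of the array's 75th percentile. In BT474-Var1 cells KRT19, KRT8, GRB7 and ERBB2 were higher than in Control by 0.62, 0.32, 0.27 and 0.22 log2 units, and EPCAM, FOXA1, CDH1 and PGR fell by 0.66, 0.50, 0.47 and 0.29. Lower in BT474-Var4 cells were PGR, ESR1 and FOXA1, with differences of -1.22, -0.47 and -0.40. The 10 markers of other cell types on the array summed to 5.25 to 5.37, 5.10 to 5.50 and 7.45 to 7.47, with 4 to 6 of them above background per array and KRT5, TP63, ACTA2, COL3A1 and PECAM1 too dim to be tested. Against Control, COL1A1 was raised by 0.34 (BT474-Var1) and 1.03 (BT474-Var4), and VWF differed by -0.87 and -0.12, the last not called. KRT14 was also called higher in both populations, and it was above background on all 4 of their arrays and on neither Control array. It was tested only through the groups in which it was bright, so its call is a description. The part of these markers in the results was not tested. At least 47.7% of all probes were well above background per array. The BT474-Var1 arrays occupied another column of the slide than the rest, and slide column and BT474-Var1 cannot be told apart.

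Levels are log2 intensities relative to the 75th percentile of the array, so 0 is that percentile, and levels are compared only within a probe. Only a probe bright enough on both arrays of some group (well above background by the scanner software's flag) was tested, which held for 51 of the 80 member probes under 38 names, and 31863 probes over the whole array. A probe was called at an adjusted p under 0.05 by limma over all tested probes. On all 6 arrays, 44 of 80 member probes (55.0%) were above background, against 45.9% of the whole array. The median SD between the replicate arrays of a member probe was 0.06 log2 units.

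Differences of either sign occurred along the window, with a median near 0. Between BT474-Var1 and Control cells the median difference over the 51 tested probes was 0.05, against -0.04 over all tested probes, with 29 of 51 above 0 (56.9%, against 14353 of all 31863). Between BT474-Var4 and Control cells it was 0.05 against -0.08, with 30 of 51 above 0 (58.8%, against 39.5%), and between BT474-Var4 and BT474-Var1 cells 0.01 against -0.03, with 51.0% above 0 against 46.8%. These are descriptions without a test. In the 6 Mb before the window, 60 tested probes had medians of -0.17, 0.05 and 0.19 in the same order, and beyond the window, 121 tested probes had medians of -0.06, -0.08 and 0.00. The sign of the BT474-Var1 median turned with 1 probe per gene name, to -0.04 over 38 names.

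**Figure D1:**
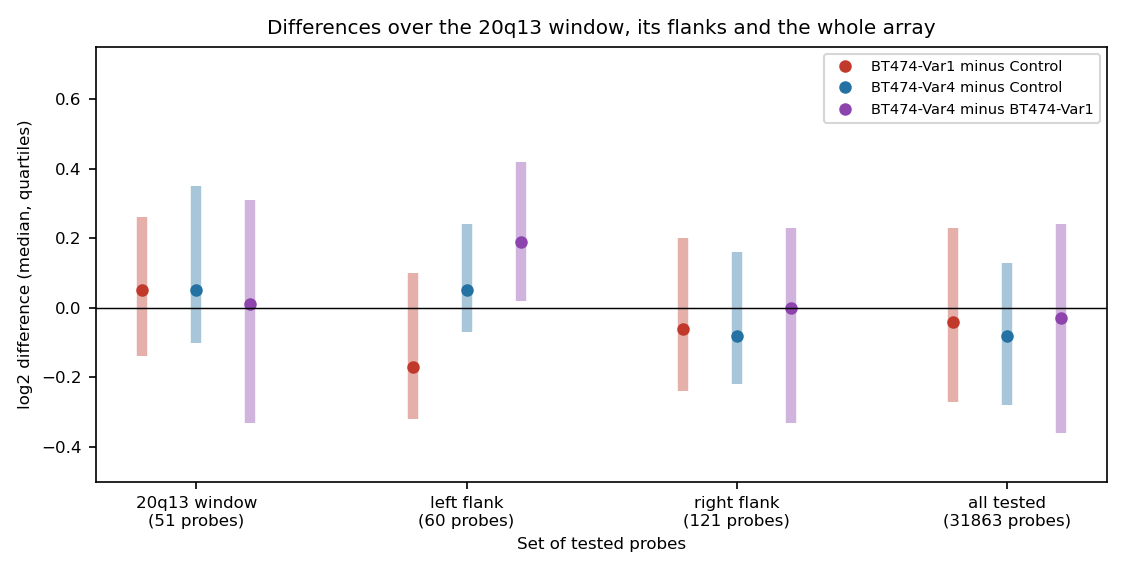
Median (points) and quartiles (bars) of the log2 difference in each of the 3 comparisons, over the 51 tested probes of the 20q13 window, the 60 before it, the 121 beyond it and all 31863. The medians of the window lie at 0.05, 0.05 and 0.01.

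In BT474-Var1 cells, 10 member probes of 8 names were higher than in Control cells and 6 probes of 5 names were lower. That is 19.6% and 11.8% of the 51 tested, where 14.1% of all tested probes were called higher and 20.3% lower. At a change of 2-fold or more, 4 members (7.84%) were called, against 3.95% of all. Of these 4, ZBP1 and ENST00000441277 were not above background in Control and passed the filter only through the group in which they were bright, so they had to differ, and their bounds are under 2-fold. Among the 49 members above background on at least 1 array of each group, 8 were higher and 6 lower, where 13.7% and 20.4% of all such probes were. Of these members 2 were called at 2-fold or more (4.08%, against 2.88% of all such probes), CASS4 and FAM209B. In BT474-Var4 cells 10 probes of 8 names were higher (19.6%, against 9.86% of all) and 2 lower (3.92%, against 14.3%). None was called at 2-fold or more, against 3.18% of all. The count did not depend on the test, since no tested member differed by 2-fold or more. The largest difference was that of FAM209B, 1.00 after rounding (1.99-fold), just under the cut. Between the transfected populations, 14 probes of 11 names were higher in BT474-Var4 cells (27.5%, against 20.4%) and 7 of 6 names lower (13.7%, against 20.7%), with 2 members (3.92%) at 2-fold or more, against 6.88%. Of these 2, only the GNAS probe was measured in each population, which makes 1 of 48 such members (2.08%, against 4.95%). Before the window, the shares called higher and lower were 13.3% and 31.7% (BT474-Var1 against Control) and 16.7% and 10.0% (BT474-Var4 against Control). Between the transfected populations they were 36.7% and 13.3% there. Beyond the window they were 13.2% and 14.9%, 9.92% and 9.92%, and 21.5% and 18.2% in the same order. The counts rest on few arrays. Fewer members were called in each of the 3 comparisons with any 1 array left out. In the fits with the largest losses, the count over the whole array fell as well. Without a filter on dim probes the members called fell to 3, 1 and 5. These are 3.75%, 1.25% and 6.25% of the members, against 4.59%, 1.24% and 8.78% of all probes. Those left were FAM209A, FAM209B and the first GNAS probe in BT474-Var1 cells, FAM209A in BT474-Var4 cells, and LOC101927820, MTRNR2L3, PMEPA1, NPEPL1 and the first GNAS probe between the transfected populations, while every other member call was lost under that setting.

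**Figure D2:**
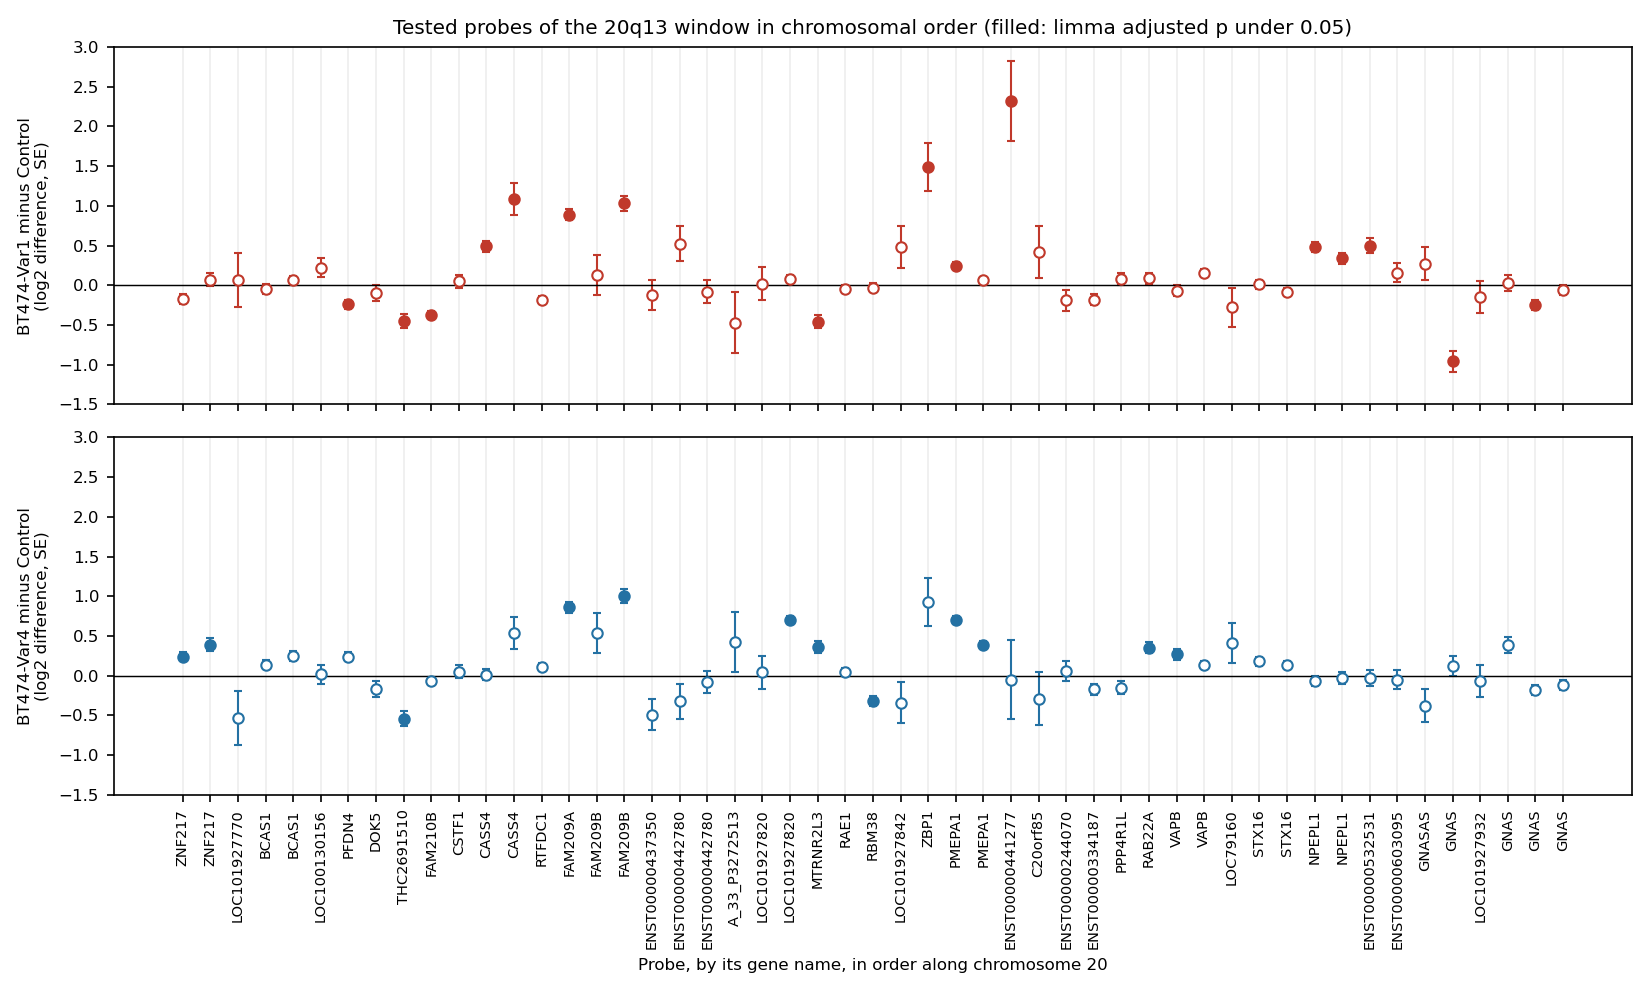
Log2 difference from Control with its standard error for each of the 51 tested probes, in order along chromosome 20, in BT474-Var1 (upper) and BT474-Var4 cells (lower). Filled points are called at an adjusted p under 0.05, of which 10 are higher and 6 lower in BT474-Var1 and 10 higher and 2 lower in BT474-Var4 cells, the last pair being THC2691510 and RBM38.

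The first stretch of the window ran from ZNF217 to PFDN4, with 7 tested probes. ZNF217 encodes a zinc finger protein that joins the corepressors KDM1A, CoREST and CtBP, and it is the best known driver candidate of 20q13. Its probe at chr20:52184078-52184137 read 4.09 and 4.17 in Control, 3.99 and 3.93 in BT474-Var1 and 4.39 and 4.36 in BT474-Var4 cells. The other probe, at chr20:52185655-52185714, read 2.98 and 2.82, 3.01 and 2.93, and 3.31 and 3.27. On both probes the BT474-Var4 arrays lay above all other arrays. In BT474-Var4 cells ZNF217 rose above Control by 0.24 (SE 0.06, adjusted p = 0.0458) and 0.39 (SE 0.08, adjusted p = 0.0299), which is 1.18- and 1.31-fold. Against BT474-Var1 cells the rise was 0.41 (adjusted p = 0.00821) and 0.32 (adjusted p = 0.0318). The difference between BT474-Var1 and Control cells was -0.17 (adjusted p = 0.0873) and 0.07 (adjusted p = 0.508). Both calls against Control were lost whichever array was left out, at adjusted p = 0.0761 to 0.179 and 0.0569 to 0.108, while the difference of 0.41 between the transfected populations kept its call without any 1 array and that of 0.32 lost it without any of the 4 arrays compared (up to 0.121) and with quantile normalization (0.0683).

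BCAS1, which stands for breast carcinoma amplified sequence, was not called on either probe. The probe at chr20:52560517-52560576 read 7.54 ± 0.06 in Control (mean and SD, n = 2), 7.51 and 7.48 in BT474-Var1 and 7.66 and 7.70 in BT474-Var4 cells. The probe at chr20:52561474-52561533 read 4.96 and 4.89, 4.94 and 5.04, and 5.20 and 5.15. The BT474-Var4 arrays were again the highest on both, and the differences from Control of 0.14 (adjusted p = 0.157) and 0.25 (adjusted p = 0.0549) did not pass. CYP24A1, the mitochondrial enzyme that inactivates vitamin D, lies between BCAS1 and PFDN4, and neither of its 2 probes was above background on any array. TSHZ2, a homeobox zinc finger gene before ZNF217, was likewise at background on all arrays. The locus names LOC101927770 and LOC100130156 in this stretch were not called.

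PFDN4 encodes a subunit of prefoldin, the chaperone that hands unfolded actin and tubulin to the chaperonin CCT. It read 6.30 and 6.28 in Control, 6.02 and 6.09 in BT474-Var1 and 6.57 and 6.48 in BT474-Var4 cells. The 3 groups did not overlap, with BT474-Var1 lowest and BT474-Var4 highest. It fell by 0.24 in BT474-Var1 cells (SE 0.06, adjusted p = 0.0447), a call lost without any 1 of the 6 arrays (adjusted p = 0.0587 to 0.165) and with quantile normalization (a fall of 0.14, adjusted p = 0.135). In BT474-Var4 cells it differed from Control by 0.24 (adjusted p = 0.0575). The difference between the transfected populations was 0.47, or 1.39-fold (adjusted p = 0.00702), and kept its call without any 1 array. Prefoldin has 6 subunits, all tested. In BT474-Var1 cells PFDN2 fell by 0.43 (adjusted p = 0.00781), while PFDN5 was higher by 0.32 (adjusted p = 0.0272) and PFDN6 by 0.57 (adjusted p = 0.00531).

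DOK5, an adaptor of receptor tyrosine kinases, was the next tested gene and read between 1.78 and 2.14 on the 6 arrays, with overlapping groups and adjusted p of 0.270 or more in every comparison. The neighboring genes CBLN4 and MC3R, a melanocortin receptor, were at background on all arrays.

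The third stretch held 18 tested probes from THC2691510 to RBM38. THC2691510 is an unnamed transcript sequence just before FAM210B. It read -1.03 and -1.02 in Control, -1.59 and -1.37 in BT474-Var1 and -1.51 and -1.61 in BT474-Var4 cells, so both transfected populations lay below Control. It fell by 0.45 (adjusted p = 0.0246) and 0.54 (adjusted p = 0.0227). The first call was lost without Control A, Control B or BT474-Var1 A (adjusted p = 0.0992, 0.105 and 0.0636), and the second without any of the 4 arrays compared, at up to 0.105. With normexp, another background correction, the falls were 0.17 and 0.22, both still called.

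FAM210B, whose product is a mitochondrial membrane protein, read 6.38 and 6.38 in Control, 5.98 and 6.02 in BT474-Var1 and 6.30 and 6.32 in BT474-Var4 cells. Only the BT474-Var1 arrays stood clearly apart. FAM210B fell there by 0.38 (SE 0.05, adjusted p = 0.00825), and the transfected populations differed by 0.31 (adjusted p = 0.0106). The fall lost its call without Control A (adjusted p = 0.0536) or Control B (0.0510), and the difference between the transfected populations without BT474-Var1 A (0.0511).

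CSTF1, a subunit of the cleavage stimulation factor that cuts pre-mRNA before polyadenylation, read 5.88 to 6.07 on all 6 arrays with overlapping groups, and its adjusted p was 0.638 or more. The gene next to it, CASS4, encodes a scaffold of the Cas family found at focal adhesions, and it moved. On the probe at chr20:55025671-55025730 CASS4 read -1.54 and -1.64 in Control, -1.16 and -1.04 in BT474-Var1 and -1.58 and -1.57 in BT474-Var4 cells. On the probe at chr20:55028074-55028133 it read -3.35 and -3.01, -1.99 and -2.20, and -2.43 and -2.85. Both probes were highest in BT474-Var1 cells, without overlap. CASS4 rose there by 0.49 (adjusted p = 0.00989) and by 1.09, or 2.12-fold (SE 0.20, adjusted p = 0.0182). In BT474-Var4 cells the differences from Control were 0.01 (adjusted p = 0.912) and 0.54 (adjusted p = 0.116). The rise of 0.49 lost its call without Control B (adjusted p = 0.0553), and that of 1.09 without Control A, Control B, BT474-Var1 A or BT474-Var1 B (adjusted p = 0.0802, 0.0501, 0.0798 and 0.0585). The difference between BT474-Var4 and BT474-Var1 cells was -0.48 on the first probe (adjusted p = 0.00854) and kept its call without any 1 array. With normexp both rises were 0.24 (adjusted p = 0.00258 and 0.00254) and this difference was -0.23, so the sizes on these dim probes depended on the background correction.

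RTFDC1, now called RTF2, encodes a protein removed from stalled replication forks, and it read 6.29 and 6.26 in Control, 6.07 and 6.09 in BT474-Var1 and 6.42 and 6.34 in BT474-Var4 cells. The order of the groups was that of PFDN4. Only the difference between the transfected populations was called, 0.30 (adjusted p = 0.0152), and it was lost without BT474-Var1 A, BT474-Var1 B or BT474-Var4 A (adjusted p = 0.0661, 0.0589 and 0.0608).

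FAM209A and FAM209B, paralogs best known from testis, were higher in both transfected populations. FAM209A read 1.83 and 1.80 in Control, 2.75 and 2.65 in BT474-Var1 and 2.72 and 2.62 in BT474-Var4 cells. FAM209B, on the probe printed above beside that of FAM209A, read -0.70 and -0.51, 0.48 and 0.37, and 0.34 and 0.44. Control lay below both populations on each probe, and the transfected populations overlapped. FAM209A rose by 0.89 in BT474-Var1 cells (SE 0.07, 1.85-fold, adjusted p = 0.00400), and the rise in BT474-Var4 cells was 0.86 (1.81-fold, adjusted p = 0.00517). FAM209B rose by 1.03 (SE 0.09, 2.04-fold, adjusted p = 0.00495) and by 1.00 (1.99-fold, adjusted p = 0.00684). Both comparisons use the same Control arrays. All 4 calls held without any 1 array, at adjusted p of at most 0.0460, and under the other alternatives apart from that of FAM209B in BT474-Var4 cells without a filter on dim probes (adjusted p = 0.0513). With normexp the rises of FAM209B were 0.68 and 0.65. Between the transfected populations each gene differed by -0.03 (SE 0.07 and 0.09). No probe of another gene name shared a run of 20 bases with these probes, but the transcripts are near copies, so cross-hybridization between them was not tested. The FAM209B probe that lies before the RefSeq start read -3.91 and -3.44 in Control, -3.83 and -3.27 in BT474-Var1 and -3.16 and -3.12 in BT474-Var4 cells, was above background on 4 of 6 arrays, and was not called (adjusted p = 0.720 and 0.186).

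**Figure D3:**
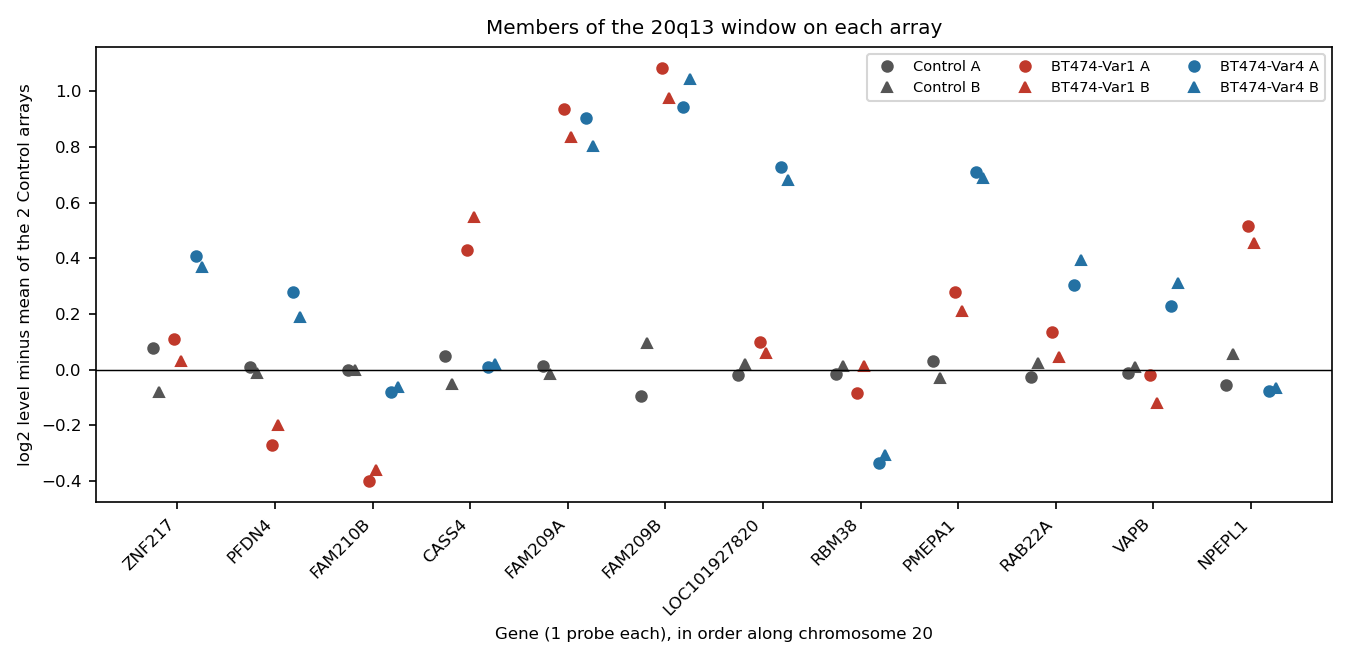
Level of 12 members on each of the 6 arrays, as the log2 difference from the mean of the 2 Control arrays (circles, array A; triangles, array B), in order along chromosome 20. FAM209A and FAM209B are raised by 0.86 to 1.03 in both transfected populations, PMEPA1 and LOC101927820 by 0.70 in BT474-Var4, and NPEPL1 by 0.48 in BT474-Var1 cells.

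Between FAM209B and MTRNR2L3 the tested probes belonged to transcripts and loci without a gene symbol. A_33_P3272513, a probe with no other name, was not called. ENST00000437350 was above background on 3 arrays and uncalled. ENST00000442780 was called on 1 of its 2 probes, lower by 0.83 in BT474-Var4 cells when set against BT474-Var1 (adjusted p = 0.0419), with values of -3.22 and -3.49 in Control, -3.10 and -2.59 in BT474-Var1 and -3.83 and -3.52 in BT474-Var4 cells. This call was lost without any 1 array apart from BT474-Var1 A (adjusted p = 0.0699 to 0.151) and with quantile normalization (-0.53, adjusted p = 0.147), it was -0.25 with normexp, and the other probe differed by 0.00 (SE 0.14). The locus LOC101927820, on its probe at chr20:55857992-55858051, read 0.39 and 0.43 in Control, 0.51 and 0.47 in BT474-Var1 and 1.14 and 1.09 in BT474-Var4 cells. The BT474-Var4 arrays stood well above the rest. It rose by 0.70 against Control (SE 0.05, 1.63-fold, adjusted p = 0.00478) and by 0.62 against BT474-Var1 cells (adjusted p = 0.00272), and both calls held without any 1 array, while the first was lost without a filter on dim probes (adjusted p = 0.0505). The other probe of the locus read between -2.80 and -2.19 and was not called. SPO11, which cuts DNA in meiosis, was at background on all arrays.

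MTRNR2L3 was the one member called in opposite directions in the transfected populations. It is a nuclear copy of part of the mitochondrial 16S ribosomal RNA gene, named for its likeness to humanin, and RefSeq places it within RAE1, while their probes are on opposite strands. It read 4.59 and 4.52 in Control, 4.05 and 4.14 in BT474-Var1 and 4.85 and 4.98 in BT474-Var4 cells. It fell by 0.46 in BT474-Var1 cells (adjusted p = 0.0149) and rose by 0.36 in BT474-Var4 cells (adjusted p = 0.0354), a difference of 0.82 between them (SE 0.08, adjusted p = 0.00336). The last call held without any 1 array. The fall was lost without Control A, Control B or BT474-Var1 A (adjusted p = 0.0790, 0.0599 and 0.0671), and the rise without any 1 array (adjusted p = 0.0616 to 0.148). The value is uncertain as that of this locus, because its probe shares a run of 27 bases with that of MTRNR2L7 on chromosome 10, in capitals, and of 24 bases with that of MTRNR2L1.
MTRNR2L3: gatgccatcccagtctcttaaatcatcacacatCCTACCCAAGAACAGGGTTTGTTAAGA
MTRNR2L7: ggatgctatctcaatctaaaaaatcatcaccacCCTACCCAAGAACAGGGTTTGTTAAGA
The MTRNR2L7 probe moved the same way, with a difference of -0.38 in BT474-Var1 cells (adjusted p = 0.0186), one of 0.32 for BT474-Var4 (adjusted p = 0.0381) and one of 0.70 between them (adjusted p = 0.00383). MTRNR2L1 differed from Control by 0.05 (adjusted p = 0.502) and -0.14 (adjusted p = 0.115), and its difference between the transfected populations was -0.19 (adjusted p = 0.0427). Of the 8 other tested probes of the family, 3 were lower in BT474-Var1 and 1 higher in BT474-Var4 cells than in Control. Among the lower was MTRNR2L9 (-0.28), whose probe shares a run of at most 5 bases with that of MTRNR2L3. Between the transfected populations 3 were higher in BT474-Var4 cells, MTRNR2L9 by 0.42 among them, and 1 was lower. No other tested member shared a run of 20 bases with a probe of another gene name.

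RAE1, which serves the export of mRNA through the nuclear pore, was bright and was not called. It read 8.68 and 8.63 in Control, 8.64 and 8.58 in BT474-Var1 and 8.67 and 8.72 in BT474-Var4 cells, and no difference exceeded 0.08 in size (adjusted p of 0.275 or more). Its neighbor RBM38, an RNA-binding protein induced by p53 that controls mRNA stability, read 2.61 and 2.64, 2.54 and 2.64, and 2.29 and 2.32. Here BT474-Var4 cells were lowest. RBM38 fell by 0.32 against Control (SE 0.06, adjusted p = 0.0259) and by 0.29 against BT474-Var1 cells (adjusted p = 0.0209). The first call was lost without any of the 4 arrays compared (adjusted p = 0.0876 to 0.119), and the second without any 1 array apart from BT474-Var1 A, at up to 0.0826.

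The last stretch ran from LOC101927842, itself not called, to GNAS with 25 tested probes. CTCFL, the testis paralog of CTCF, and PCK1, the cytosolic enzyme that commits carbon to gluconeogenesis, were at background on all arrays. ZBP1, a sensor of Z-form nucleic acids induced by interferon, was at background in Control (-5.59 and -4.73), above it on both BT474-Var1 arrays (-3.66 and -3.69) and above it on 1 BT474-Var4 array (-4.12 and -4.34). In BT474-Var1 cells it exceeded Control at least 1.63-fold, where the Control value is raised on each array to the dimmest signal called above background (adjusted p = 0.0240). ZBP1 was tested only because it was bright in BT474-Var1 cells, so its call is a description and supports nothing, and with normexp the difference was 0.17. The call was lost without BT474-Var1 A (adjusted p = 0.0922) or BT474-Var1 B (0.0889), and a further ZBP1 probe was at background on all arrays.

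PMEPA1 encodes a membrane protein induced by androgen and by TGF-beta that restrains SMAD signaling. At chr20:56223489-56223548 it read 5.70 and 5.64 in Control, 5.95 and 5.88 in BT474-Var1 and 6.38 and 6.36 in BT474-Var4 cells. At chr20:56227094-56227153 it read 4.59 and 4.63, 4.67 and 4.66, and 5.00 and 5.01. BT474-Var4 arrays were highest on both probes by more than any spread between replicates. PMEPA1 rose in BT474-Var4 cells by 0.70 (SE 0.05, 1.62-fold, adjusted p = 0.00525) and 0.39 (adjusted p = 0.0120). Against BT474-Var1 cells it was higher by 0.45 (adjusted p = 0.00587) and 0.34 (adjusted p = 0.00906). BT474-Var1 cells were higher than Control by 0.24 on the first probe (adjusted p = 0.0317), a call lost whichever array was left out (adjusted p = 0.0605 to 0.137), and by 0.06 on the other (adjusted p = 0.426). The rise of 0.70 and both differences between the transfected populations held without any 1 array, though without a filter on dim probes the adjusted p was 0.0519 for the rise and 0.0753 for the difference of 0.34, while that of 0.39 was lost without any of the 4 arrays compared (adjusted p = 0.0526 to 0.0709).

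ENST00000441277, the next tested transcript, was above background in BT474-Var1 cells alone, at -3.56 and -3.75. It was at least 1.65-fold above Control (adjusted p = 0.0285) and at least 1.19-fold above BT474-Var4 cells (adjusted p = 0.0230), where it was not well above background. The first call was lost without any 1 array apart from Control A, and the second without any of the 4 arrays compared, at adjusted p of up to 0.108 and 0.0943. Like ZBP1 it was tested only for its signal in BT474-Var1 cells, so both calls are descriptions, and with normexp the differences were 0.21 and -0.25. C20orf85 and the 3 probes of the pseudogene PPP4R1L, of which 2 are listed as ENST00000244070 and ENST00000334187, were not called.

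RAB22A, VAPB and STX16, 3 genes of membrane traffic, lie near one another. RAB22A, a small GTPase of early endosomes, read 4.29 and 4.34 in Control, 4.45 and 4.36 in BT474-Var1 and 4.62 and 4.71 in BT474-Var4 cells. VAPB, which anchors the endoplasmic reticulum to other membranes, read 5.23 and 5.25, 5.22 and 5.12, and 5.47 and 5.55 at chr20:57020214-57020273. STX16, a SNARE of the trans-Golgi, read 5.62 and 5.60, 5.50 and 5.55, and 5.75 and 5.75 at chr20:57254353-57254412. On these 3 probes the BT474-Var4 arrays were the highest. On the other VAPB probe they were not, at 2.43 and 2.43 against 2.43 and 2.46 in BT474-Var1 cells. RAB22A rose in BT474-Var4 cells by 0.35 (SE 0.07, adjusted p = 0.0273) and VAPB by 0.27 (SE 0.07, adjusted p = 0.0479), while the difference of STX16 was 0.14 (adjusted p = 0.114). Against BT474-Var1 cells RAB22A differed by 0.26 (adjusted p = 0.0368), VAPB by 0.34 (adjusted p = 0.0178) and STX16 by 0.22 (adjusted p = 0.0255). The rise of VAPB and the differences of RAB22A and STX16 between the transfected populations were lost whichever array was left out (adjusted p of up to 0.174 for VAPB and 0.133 for RAB22A, and at least 0.0595 for STX16), and the last pair also with quantile normalization (0.16 and 0.15, adjusted p = 0.122 and 0.0669). The rise of RAB22A was lost without any of the 4 arrays compared (up to 0.124), and the VAPB difference of 0.34 without BT474-Var1 B (0.0701) or BT474-Var4 B (0.0743). The other VAPB probe differed from Control by 0.16 (BT474-Var1) and 0.14 (BT474-Var4) and the other STX16 probe by 0.01 and 0.18, none of them called. LOC79160 and ENST00000603095, on either side of STX16, were not called either.

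NPEPL1, a putative aminopeptidase directly after STX16, followed another course. At chr20:57290323-57290382 it read 3.22 and 3.33 in Control, 3.79 and 3.73 in BT474-Var1 and 3.20 and 3.21 in BT474-Var4 cells. At chr20:57290406-57290465 it read 4.98 and 5.13, 5.38 and 5.40, and 4.99 and 5.06. A transcript that the file describes as belonging to the same gene, ENST00000532531, read -1.19 and -1.39, -0.87 and -0.71, and -1.35 and -1.29. The BT474-Var1 arrays were highest on all 3 probes. NPEPL1 rose there by 0.48 (SE 0.06, 1.40-fold, adjusted p = 0.00870) and 0.34 (adjusted p = 0.0279), and ENST00000532531 by 0.50 (adjusted p = 0.0224). BT474-Var4 cells differed from Control by -0.07, -0.03 and -0.03, and from BT474-Var1 cells by -0.56 (adjusted p = 0.00507) and -0.37 (adjusted p = 0.0191) on the NPEPL1 probes and -0.53 on ENST00000532531 (adjusted p = 0.0163). On the first probe both calls held without any 1 array, and the rise was lost without a filter on dim probes (adjusted p = 0.0613). With normexp the differences of ENST00000532531 were 0.26 and -0.28, both called. The rise of 0.34 was lost whichever array was left out (adjusted p = 0.0507 to 0.104), that of 0.50 without Control B, BT474-Var1 A or BT474-Var1 B (0.0836, 0.0517 and 0.0860), the difference of -0.37 without any of the 4 arrays compared (up to 0.0793) and that of -0.53 without any of them but BT474-Var1 A (up to 0.0714). The STX16 probes differed by 0.01 and -0.09 in BT474-Var1 cells.

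The GNAS locus closes the window, and its probes are given separately. The probe assigned to XL alpha s read 0.37 and 0.48 in Control, -0.70 and -0.37 in BT474-Var1 and 0.56 and 0.53 in BT474-Var4 cells. Only the BT474-Var1 arrays were low, with no overlap. It fell by 0.96 in BT474-Var1 cells (SE 0.13, 1.95-fold, adjusted p = 0.00891), differed by 0.12 in BT474-Var4 cells (adjusted p = 0.527), and by 1.08 between the transfected populations, with BT474-Var4 above BT474-Var1 (2.11-fold, adjusted p = 0.00548). The fall was lost without Control B (adjusted p = 0.0530), and the difference between the transfected populations held without any 1 array and under all other alternatives. With normexp the fall was 0.58 and the difference 0.69.

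The 2 probes assigned to several RefSeq transcripts, near the end of GNAS, gave smaller differences. The probe that crosses an intron read 7.88 and 7.89 in Control, 7.64 and 7.62 in BT474-Var1 and 7.75 and 7.65 in BT474-Var4 cells. The last probe read 8.78 and 8.78, 8.76 and 8.67, and 8.66 and 8.66. The first of these fell by 0.25 in BT474-Var1 cells (adjusted p = 0.0308), a call lost without Control A, Control B, BT474-Var1 A or BT474-Var1 B (adjusted p = 0.121, 0.122, 0.0976 and 0.111) and with quantile normalization (a fall of 0.13, adjusted p = 0.161), and the last by 0.06 (adjusted p = 0.411). The probe assigned to Ensembl transcripts alone read 1.67 and 1.92, 1.84 and 1.82, and 2.17 and 2.21, and the transfected populations differed by 0.36 with BT474-Var4 above (adjusted p = 0.0443, lost without any of the 4 arrays compared, at up to 0.147, and with quantile normalization, at 0.0837). The probe for NESP55, NM_016592, was at background on all arrays. The antisense transcript GNASAS differed from Control by 0.27 and -0.38 and LOC101927932 by -0.15 and -0.07, none of them called. Whether the probes differ from each other in their change was not tested.

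**Figure D4:**
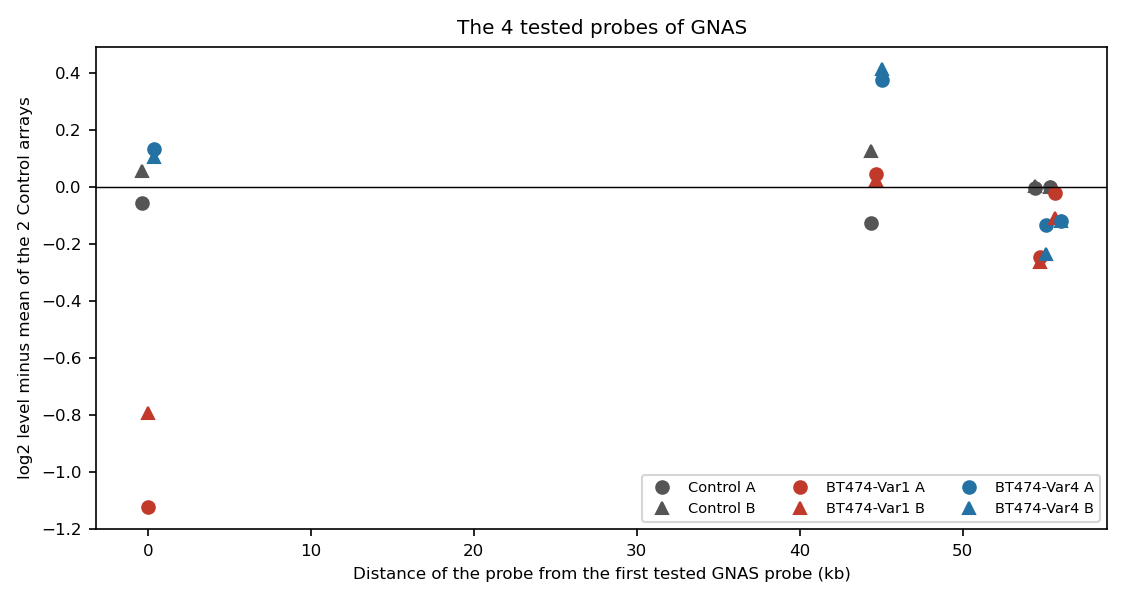
Level of the 4 tested GNAS probes on each array, as the log2 difference from the mean of the 2 Control arrays, against the distance from the first of them in kb. The first probe, assigned to XL alpha s, lies 0.96 lower on average in BT474-Var1 cells, and the last probe differs by 0.06.

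Partners of these proteins encoded elsewhere were read from lists, each gene by its brightest tested probe. Their counts are descriptions, to be read against the 14.1% called higher and 20.3% lower of all tested probes in BT474-Var1 cells, and 9.86% and 14.3% in BT474-Var4 cells. Of 8 corepressor partners of ZNF217, 1 was higher in BT474-Var1 cells, PHF21A by 1.27, the largest change of the list there. Lower in these cells were 3 (KDM1A by -0.51, CTBP1 by -0.38 and HDAC1 by -0.23). In BT474-Var4 cells 1, CTBP2, was lower, by 0.36. The list medians were -0.17 and -0.06, against -0.04 and -0.08 over all tested probes. Of 19 genes of Gs and cyclic AMP signaling, GNAS included, 2 were higher and 6 lower in BT474-Var1 and 5 higher and 2 lower in BT474-Var4 cells, with medians of -0.18 and 0.08. ADCY7, an adenylyl cyclase, moved in opposite directions, by -0.99 (adjusted p = 0.00794) and 1.41 (adjusted p = 0.00600). PDE4D of the same list was also called in opposite directions, by -0.33 and 0.55. The other adenylyl cyclases of the list did not follow ADCY7. ADCY3 differed by -0.27 and -0.90, ADCY6 by 0.06 and -0.40 and ADCY9 by -0.33 and -0.10. Of these, only ADCY9 in BT474-Var1 and ADCY3 in BT474-Var4 cells were called. Of 14 genes of SNARE and VAP membrane traffic, 3 of them members, 1 was higher and 3 lower in BT474-Var1 cells. In BT474-Var4 cells 5 were higher (median 0.20), but VAPB and RAB22A among them are members already described above. The rest were RAB5A of the early endosome by 0.58 (adjusted p = 0.0102), OSBPL2 by 0.35 and COL4A3BP by 0.27. Of 9 genes of mRNA 3′ end processing and export, 2 members included, 2 were lower in each population, CSTF2 and NXF1 in BT474-Var1 and NUP98 and NXF1 in BT474-Var4 cells. Of 8 tested genes that handle vitamin D, 1 was higher in BT474-Var1 and 1 lower in BT474-Var4 cells.

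Promoter sequences were found in RefSeq for 18 of the 38 tested names, 28 promoters in all, since some genes have several starts. AGGTCA, the core motif of nuclear receptors, stood in 9 of 28 on either strand (32.1%), against 13.8% of all 35116 promoters of 300 bases. The members with it were PFDN4, FAM209A, FAM209B, RAE1, PMEPA1, RAB22A, NPEPL1 and GNAS, which include genes that rose, fell and were not called. The 9 are not independent, since GNAS had it in 2 promoters and those of FAM209A and FAM209B are near copies. GGGCGG, the GC box, stood in 14 (50% against 45%), CACGTG, the E-box, in 1 (3.57% against 7.26%) and TGACGTCA, the cyclic AMP response element, in 2 (7.14% against 1.85%), those of CSTF1 and PMEPA1. Each motif was counted on its own, whether or not another overlapped it, and a match is a description of the letters in the window.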

How the data were processed

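Cy3-labeled RNA of the 6 samples was read on Agilent arrays of 60-base probes, with 1 sample on each array. The design number in the headers differs from that in the methods, and probe positions are in hg19. The intensity values, per the file headers, were made by the authors with Agilent Feature Extraction 11.5.1.1 (background-corrected processed signal for each spot). The authors also deposited a table of log2 values after a shift to the 75th percentile, which served as an alternative. No columns of the authors' own comparisons were used.

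Here outlier spots were dropped, spots of a probe averaged, and log2 of the processed signal taken minus the 75th percentile of the array. Probes well above background on both arrays of 1 group or more were tested (31863 of 58201) with limma 3.58.1 in R 4.3.3, with data.table (version 1.17.8), as a mean per group with empirical Bayes variances (3 residual and 1.53 prior degrees of freedom), and p-values were adjusted by Benjamini-Hochberg over all tested probes. The method was tested on simulated data. With 2 arrays a group, the number of arrays limits the precision. No spot was saturated.

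Members were the probes starting between 51500000 and 57500000 of chromosome 20, with flanks from 45500000 and from 57500000 on. The members, lists, motifs and alternatives were chosen with earlier results of these data known. All tested member genes are described in chromosomal order by the brightest tested probe, with other probes where they differ, and with array values for genes called in any comparison and for 13 genes that the rule for named genes lists. Arrays with the same letter shared no deviation across groups (correlations of deviations of -0.01, 0.05 and -0.02). This cannot show whether they were processed together, and the sources do not say what the letters mean. Lists, from general knowledge, were ZNF217 corepressor partners, vitamin D handling, Gs and cyclic AMP signaling, SNARE and VAP traffic, mRNA 3′ end processing and export, prefoldin, luminal HER2 markers and markers of other cell types. Gene names are those of the array. Promoters came from RefSeq (GRCh38.p14). Tried in place of these settings were normexp (offset 50) for the background, quantile scaling between arrays, testing every probe or only those bright on all 6 arrays, the authors' normalized values, the replicate letter as a block, trended robust variances, the methods' one-way analysis of variance, fits of only the groups compared, a single probe per gene name, and each array left out.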

Additional observations from a re-analysis of the deposited data

Results flagged for a closer look

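MTRNR2L3 drew attention because its effects against the same Control arrays ran in opposite directions, -0.46 for BT474-Var1 and 0.36 for BT474-Var4. The difference between the populations was 0.82 log2 units (limma, adjusted p = 0.00336), with both BT474-Var4 arrays above both BT474-Var1 arrays. As given above, the rise against Control lost its call without any 1 array and the fall without some of them. The probe may also read related loci.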

How the results depend on the processing

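The number of member probes called depended on the settings. Against 16 called in BT474-Var1 cells, there were 3 without a filter on dim probes and 10 with the replicate block. Against 12 in BT474-Var4 cells, there were 20 with normexp, 1 without a filter, 7 with the replicate block and 22 with trended robust variances. Against 21 between the transfected populations, there were 32 with normexp, 5 without a filter and 17 with the replicate block. With 1 array left out, the counts ranged from 4 to 13, from 4 to 8 and from 10 to 18. The counts over the whole array moved with the same settings. Against 10961 of 31863 probes called in BT474-Var1 cells (34.4%), there were 2672 of 58201 without a filter (4.59%) and 8755 with the replicate block. Against 7709 in BT474-Var4 cells, there were 10896 with normexp, 722 without a filter, 4902 with the replicate block and 11407 of 31804 with trended robust variances. Against 13116 between the transfected populations, there were 18349 with normexp and 5112 without a filter. Counting only probes above background on at least 1 array of each group compared, a choice made after seeing the data, gave 14 of 49, 12 of 47 and 20 of 48 members. Over the whole array the same rule gave 10475 of 30707, 7223 of 29836 and 12189 of 29609 probes. The cause was not tested.

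The median over member probes was 0.05 in BT474-Var1 cells and -0.04 with 1 probe per gene name (0.03 to 0.05 with 1 array left out). In BT474-Var4 cells it was 0.05, and 0.13 with quantile normalization and 0.14 without a filter (0.05 to 0.11 with 1 array left out, the highest without BT474-Var4 B). Between the transfected populations it was 0.01, and 0.07 with quantile normalization and 0.08 with the filter on all 6 arrays (0.00 to 0.06 with 1 array left out). Without a filter the median of all probes moved from -0.04 to 0.12 in BT474-Var1 and from -0.08 to 0.03 in BT474-Var4 cells.

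For single probes, 226 combinations of comparison and setting lost a call, 75 gained one and 1973 stayed on the same side of the threshold. Of these 2274 values, 74 had the opposite sign of the reported one, none of them called in the reported setting or in the alternative. Calls kept under all alternatives run numbered 2 of 16, 1 of 12 and 5 of 21. Dim probes such as those of ZBP1 and ENST00000441277 give only bounds.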
